A study of Caenorhabditis elegans with 12 samples.

Results

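A set of 25 *C. elegans* genes that carry no name beyond their sequence name, and that were lower in sixth-day than in first-day adults of 2 genotypes, was described in whole-worm RNA-seq. The genes were chosen by their abundance in these same libraries, in TPM, the share of transcripts that a gene holds in a library after correction for length. TPM was added over the isoforms of a gene and averaged over the 3 libraries of a condition, and 0.5 TPM was added to each mean. A gene was taken when its first-day mean over its sixth-day mean was at least 4 in both genotypes, when both first-day means were at least 3 TPM, and when its only symbol was a sequence name. Of 22037 genes in the files, 10610 had no name of their own and 3329 of these reached 3 TPM in both first-day groups. The limits were met by 25 of them, out of 129 genes, named ones included, that met those on TPM.

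Poly(A) RNA came from pools of synchronized, untreated adults grown on *E. coli* OP50. The *fog-2(lf)* strain was JK574, which carries *fog-2(q71)*, and wild type was N2. Both were taken on day 6 of adulthood and on day 1, before eggs were visible, with 3 replicates in each of the 4 conditions (12 libraries). The study set age against sperm status: wild-type XX adults are hermaphrodites that run out of their own sperm, and *fog-2*, a germline gene, is needed by XX animals to make sperm, so XX *fog-2(lf)* adults have oocytes only. Both strains therefore lack sperm on the sixth day, and only first-day wild type has it. The change with age runs over the time in which wild type lays its eggs, and age and the end of egg-laying cannot be told apart in wild type alone.

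A sequence name such as K12H4.7 gives the cosmid or clone on which the gene was found and the number of the gene within it. It says nothing of function. Such genes are renamed once a mutant, a homolog or a family is assigned, and the unnamed genes of *C. elegans* therefore hold many that have been studied little. The annotation used here (Ensembl, assembly WBcel235) and a table of gene symbols give none of the 25 another name. The RefSeq table of the same assembly lists 24 under the sequence name and 1, T28D6.3, as *pugs-8*. No role is given here to any of them.

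Libraries held 21162594 to 38775997 estimated counts. *fog-2* was at 2.94 to 4.19 TPM in the 6 *fog-2(lf)* libraries, against 36.9 to 64 TPM in the 6 wild-type libraries. Together the 25 genes made up 165 to 272 TPM in sixth-day and 1282 to 2086 TPM in first-day *fog-2(lf)*. In wild type they made up 150 to 184 TPM on the sixth day and 1548 to 2162 TPM on the first day. In a principal component analysis the days parted on the first component (50.3% of the variance). Sperm markers, 8 genes summed, reached 137 TPM in first-day wild-type replicate 2 and 13.9 TPM in first-day *fog-2(lf)* replicate 2, and were at most 3.99 TPM in the other 10 libraries. None of the 8 was at 0 in every library.

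All 25 genes are annotated as protein coding. They lie on all 6 chromosomes, with 9 on V, 6 on X, 3 each on II and III, and 2 each on I and IV. Chromosome V thus holds 36% of them, against 18.1% of the other unnamed genes that reached 3 TPM in both first-day groups, and X holds 24%, against 13.7%. They are not clustered: no pair lies within 50 kb, and the closest, C35A5.3 and F28H7.3 on V, are 248 kb apart. Their coding lengths run from 135 bases in C53B7.6 to 3117 bases in C05D12.3. The median, 750 bases, stands beside 840 bases for the other unnamed genes at this level and 1098 bases for all genes at this level. Most are quantified as 1 isoform, and C05D12.3, C23H5.8 and R13H4.2 have 5 each.

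The gene with the largest ratios in both genotypes was Y39B6A.1 (V, 19201016 to 19203607, minus strand), which has 3 exons and encodes 735 amino acids. It was at 2.08, 2.28 and 2.56 TPM in sixth-day *fog-2(lf)*, against 139, 54 and 137 TPM in first-day *fog-2(lf)*. In wild type it was at 0.960, 3.24 and 2.53 TPM on the sixth day and 137, 101 and 273 TPM on the first day. The first-day mean was 39.4 times the sixth-day mean in *fog-2(lf)* and 62.3 times in wild type, with 0.5 TPM added to each.

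T13F3.6 (V, 16270300 to 16271221, minus strand, 168 amino acids) was at 5.42, 5.11 and 4.06 TPM in sixth-day *fog-2(lf)*, against 144, 83 and 93.4 TPM on the first day. In wild type it was at 3.49, 3.63 and 2.50 TPM on the sixth day and 69.7, 130.4 and 22.3 TPM on the first day. Its first-day wild-type libraries were far apart, and the lowest of them was above every sixth-day library. T13F3.6 lies wholly within T13F3.8, a gene of the opposite strand, and all 553 bases of its exons fall on T13F3.8 exons. The estimated counts of T13F3.6 were whole numbers, within 0.02, in 12 of 12 libraries, and the part of T13F3.8 in them was not tested. The library kit does not mark strand. T13F3.8 itself was at a mean of 0.386 and 0.172 TPM in sixth-day and first-day *fog-2(lf)*, and 0.947 and 0.222 TPM in sixth-day and first-day wild type.

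T05E12.6 (V, 17085002 to 17089442, minus strand) was at 0.908, 0.634 and 0.317 TPM in sixth-day *fog-2(lf)*, against 27.5, 15.4 and 18.9 TPM on the first day. In wild type the values were 0.162, 0.352 and 0.439 TPM on the sixth day and 29.4, 20.0 and 15.5 TPM on the first day. Its isoform a held at least 93.8% of its TPM in each condition. The first-day levels of the genotypes overlapped, and the sixth-day levels came from 11 to 64 estimated counts per library.

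The most abundant gene of the set in first-day *fog-2(lf)*, by its mean, was F46F2.3 (X, 15259579 to 15260287, minus strand), with 2 exons and 137 amino acids. It was at 44.3, 25.2 and 20.0 TPM in sixth-day *fog-2(lf)*, against 395, 227 and 646 TPM on the first day, and at 4.42, 24.3 and 17.3 TPM in sixth-day wild type, against 195, 296 and 64.8 TPM. The genotypes overlapped on both days. E02H4.7 (X), of 150 amino acids, was the last of the 5 genes with ratios of at least 10 in both genotypes, at 0.406 to 1.76 TPM in sixth-day and 8.47 to 23.1 TPM in first-day *fog-2(lf)*. In wild type it was at 0.456 to 0.990 TPM on the sixth day and 7.25 to 21.8 TPM on the first day.

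In 7 genes both first-day means passed 100 TPM: Y39B6A.1, F46F2.3, Y47G6A.33, F09E10.1, K11D12.13, C23H5.8 and Y51F10.7. Y47G6A.33 (I, 112 amino acids) was at 21.5, 18.4 and 16.1 TPM in sixth-day *fog-2(lf)*, against 193, 111 and 213 TPM on the first day, and at 9.51, 15.5 and 14.3 TPM in sixth-day wild type, against 247, 169.6 and 186 TPM. F09E10.1 (X, 90 amino acids) was at 46.1, 29.9 and 30.9 TPM in sixth-day *fog-2(lf)*, against 164, 173 and 184 TPM, and at 27.8, 27.8 and 15.4 TPM in sixth-day wild type, against 163, 107 and 199 TPM. C23H5.8 (IV, 203 amino acids) was at 37.2, 25.7 and 10.6 TPM in sixth-day *fog-2(lf)*, against 113, 106 and 106 TPM, and at 19.1, 17.4 and 8.04 TPM in sixth-day wild type, against 165, 98.2 and 119 TPM. Y47G6A.33, F09E10.1 and C23H5.8 were each at 8.04 TPM or more in every sixth-day library. Of the exon bases of Y47G6A.33, 106 are shared with *lpd-3* on the opposite strand. On the sixth day *lpd-3* was at a mean of 13.2 TPM in *fog-2(lf)* and 17.7 TPM in wild type. Its part in the level of Y47G6A.33 was not tested. The F09E10.1 transcript in the files is 279 bases long, and its TPM rests on an effective length of 56.2 bases in first-day wild-type replicate 1 and 48.4 bases in the other 11 libraries.

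At the other end, both first-day means were below 10 TPM in 4 genes, K08D8.3, C53B7.6, C35A11.4 and F44A6.5. K08D8.3 (IV) was at 0.567 to 1.25 TPM in sixth-day and 4.75 to 8.18 TPM in first-day *fog-2(lf)*, and at 0.150 to 0.921 TPM in sixth-day and 6.13 to 8.74 TPM in first-day wild type. C53B7.6 (X, 1 exon, 45 amino acids) was the weakest, with 0 to 5.83 estimated counts in any library. It was listed at 0 in all 3 sixth-day *fog-2(lf)* libraries, against 0.690, 3.69 and 8.01 TPM on the first day, and at 1.59, 0 and 1.69 TPM in sixth-day wild type, against 4.23, 4.25 and 11.4 TPM. It was below the limit on low counts and was the only one of the 25 genes that was not tested.

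**Figure D1:**
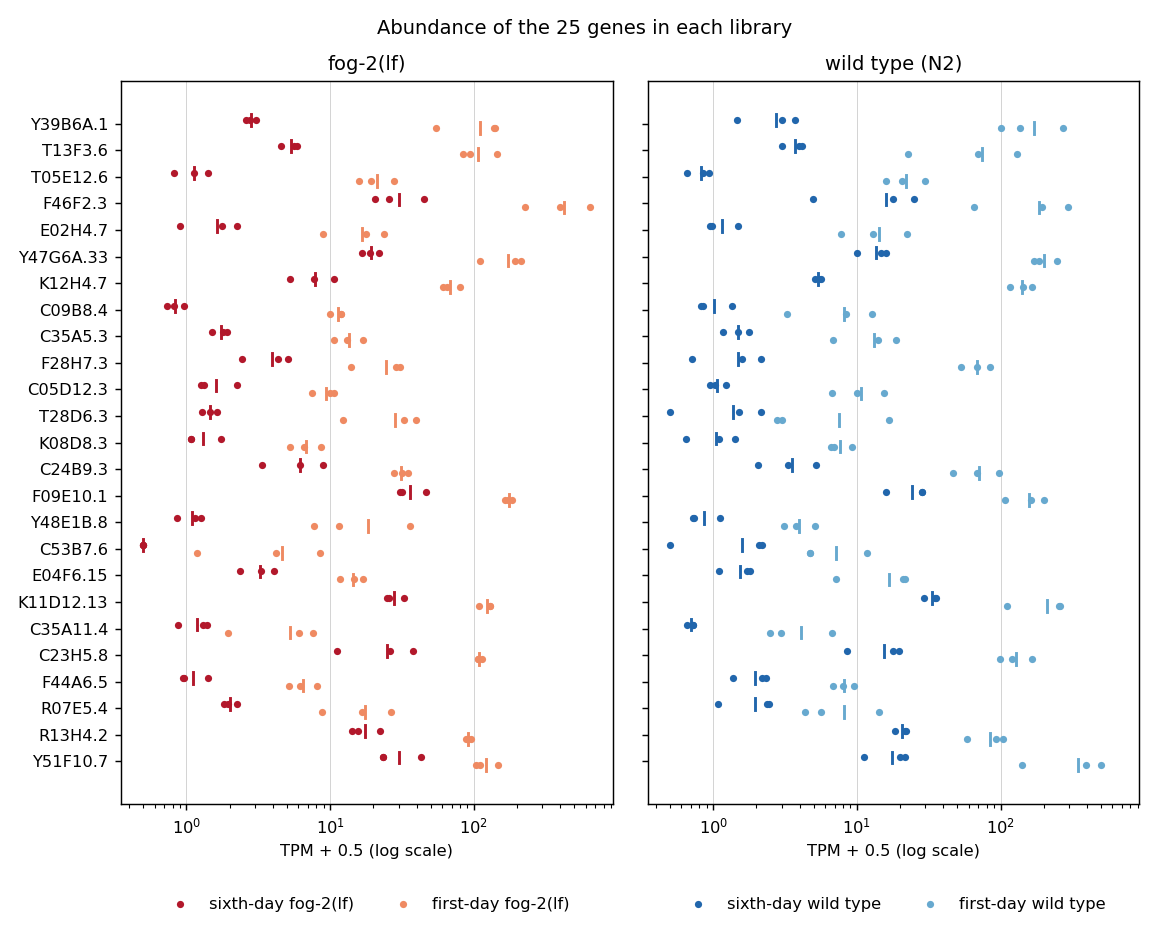
TPM of the 25 genes in each of the 12 libraries, with 0.5 added, on a log axis; points are libraries, short bars the means of the 3 libraries of a condition, and genes run from the largest to the smallest of their lower ratio. In each genotype the sixth-day points lie left of the first-day points for every gene, from Y39B6A.1, with ratios of 39.4 and 62.3, to Y51F10.7, with 4.04 in *fog-2(lf)*.

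For all 25 genes, each sixth-day library was below each first-day library of its genotype. Over the 8920 genes that reached 3 TPM in both first-day groups this held for 26.2% in *fog-2(lf)* and 13.6% in wild type. The ratios that chose the 25 genes come from these same libraries, so their separation is a description and not a test. For C53B7.6 the lowest first-day *fog-2(lf)* library had 0.5 estimated counts, against 0 in each sixth-day *fog-2(lf)* library. In a fit of the estimated counts across 14561 genes (edgeR quasi-likelihood test, with calls where the p after Benjamini-Hochberg adjustment was under 0.1), 21.2% of genes were called lower and 18.1% higher on the sixth day in *fog-2(lf)*, and 25.4% lower and 23.5% higher in wild type. The 24 genes tested were all among those called lower in both genotypes, and since the same contrasts chose them this is a description. Their log2 changes with age had a median of -3.26 in *fog-2(lf)* (range -5.65 to -2.09) and -4.33 in wild type (range -6.68 to -2.37), against -0.03 and 0.00 over all genes tested. Of the 25 genes, 8 had the larger ratio in *fog-2(lf)* and 17 in wild type. Named genes within the same limits also fell on both sides. The ratios in *fog-2(lf)* and wild type were 143.4 and 63.8 for *col-160*, against 11.75 and 80.1 for *vit-1*. Their split was not counted, so that of the 25 genes is not shown to be particular to them.

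The limits cut through a continuum. Just inside the ratio of 4 were Y51F10.7 with 4.04 in *fog-2(lf)*, R13H4.2 with 4.08 in wild type and R07E5.4 with 4.12 in wild type. Just outside it were W08D2.9 with 3.98, C45B2.1 with 3.94 and ZK1321.4 with 3.93, all in wild type. At the limit of 3 TPM, Y48E1B.8 was just inside with 3.48 TPM in first-day wild type, followed by C35A11.4 with 3.57 TPM in first-day wild type and C53B7.6 with 4.13 TPM in first-day *fog-2(lf)*. T05C3.6, T19C4.24 and F09C8.1 were just outside, at 2.98, 2.57 and 2.57 TPM in first-day *fog-2(lf)*. The lower ratio was under 5 in 11 of the 25 genes.

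The change with age differed in size between the genotypes for part of the set. The log2 changes in this paragraph are from the edgeR fit unless stated. The change in *fog-2(lf)* minus that in wild type was 3.68 for F28H7.3, 2.67 for Y51F10.7, 2.47 for C24B9.3 and 2.0 for K12H4.7. Each of these was thus reduced less in *fog-2(lf)*. The difference was -1.60 for T28D6.3 and -1.33 for Y48E1B.8, which were reduced more in *fog-2(lf)*. The first-day wild-type mean of T28D6.3 rested on replicate 2, at 16.3 TPM, against 2.30 and 2.51 TPM in replicates 1 and 3. Without that library, or with group medians, T28D6.3 did not meet the rule. R13H4.2 was at the other extreme of likeness, with log2 changes of -2.39 in *fog-2(lf)* and -2.37 in wild type. These differences come from the contrasts that chose the genes and were not tested.

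**Figure D2:**
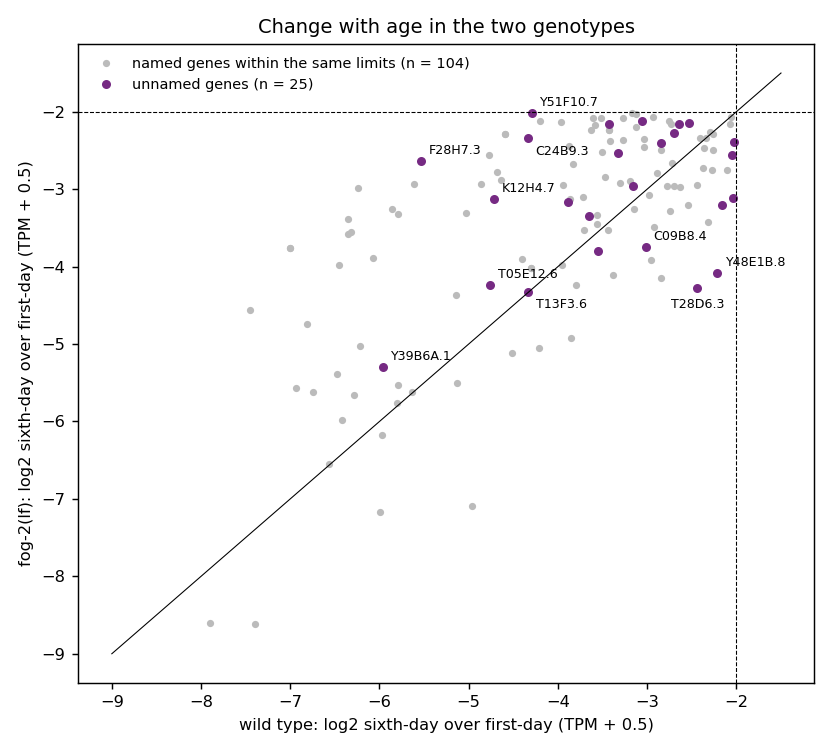
Log2 of the sixth-day over the first-day mean (TPM + 0.5) in *fog-2(lf)*, vertical, against wild type, horizontal, for the 25 unnamed genes and the named genes within the same limits; dashed lines mark the limit of 4-fold and the solid line equal change. F28H7.3, C24B9.3 and Y51F10.7 lie well above the line, at lower ratios of 6.21, 5.08 and 4.04, and T28D6.3 and Y48E1B.8 lie below it.

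The genotypes were not compared by the rule, and their difference on each day was tested. On the first day, 1 of the 24 genes tested was higher and 5 were lower in *fog-2(lf)*, shares of 4.17% and 20.8%, while 7.73% and 10.6% of all genes tested were called in these directions. The median log2 difference was -0.23 for the 24 genes (range -1.64 to 2.27) and -0.01 for all genes, and 8 of the 24 differences were positive. The groups did not overlap in TPM for 1 gene that was higher and 3 that were lower in *fog-2(lf)*, against 18.9% and 8.63% of all genes tested. Without first-day *fog-2(lf)* replicate 1, 2 or 3 the number called lower was 1, 1 and 2, and without first-day wild-type replicate 1 or 3 it was 2 and 3. The number called higher was 0 without *fog-2(lf)* replicate 3 (1 at an unadjusted p under 0.05, edgeR) and 2 without wild-type replicate 1 or 2.

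K12H4.7 (III, 8048450 to 8051081, minus strand) has 8 exons and encodes 510 amino acids, and gave the call that held in all 22 alternative fits. It was at 79.4, 64.6 and 60.3 TPM in first-day *fog-2(lf)*, against 141.6, 116 and 166 TPM in first-day wild type. The log2 difference was -1.17 (standard error 0.25, adjusted p = 0.0169, edgeR). On the sixth day the order was turned round: 10.1, 7.16 and 4.77 TPM in *fog-2(lf)*, against 4.57, 5.10 and 4.99 TPM in wild type, a log2 difference of 0.83 (standard error 0.26, adjusted p = 0.0597, edgeR). The sixth-day groups overlapped, and without *fog-2(lf)* replicate 1 the difference was 0.49 (adjusted p = 0.235, edgeR). The call was also lost without *fog-2(lf)* replicate 2 (adjusted p = 0.123, edgeR), without any 1 sixth-day wild-type library (0.139 to 0.144) and with limma on log2 TPM, where the difference was 0.45 to 0.51.

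F28H7.3 (V, 10749605 to 10750788, minus strand), with 3 exons and 294 amino acids, had the same pattern and larger differences. It was at 28.4, 13.5 and 30.1 TPM in first-day *fog-2(lf)*, against 83.6, 52.6 and 68.0 TPM in first-day wild type (log2 difference -1.61, standard error 0.48, adjusted p = 0.0548, edgeR). It was at 3.80, 4.61 and 1.94 TPM in sixth-day *fog-2(lf)*, against 0.213, 1.65 and 1.08 TPM in wild type (2.07, standard error 0.57, adjusted p = 0.0377, edgeR). The groups did not overlap on either day. The first-day call was lost without any 1 of the *fog-2(lf)* libraries or wild-type replicate 1 (adjusted p 0.107 to 0.143, edgeR), and the sixth-day call without *fog-2(lf)* replicate 1 or 2 (0.119 for both).

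Y51F10.7 (I, 1911684 to 1913935, minus strand, 189 amino acids) was at 103.5, 110.1 and 147 TPM in first-day *fog-2(lf)*, against 390.2, 140.0 and 499 TPM in first-day wild type (log2 difference -1.64, standard error 0.43, adjusted p = 0.0352, edgeR). Wild-type replicate 2 lay within the range of the *fog-2(lf)* libraries, so the groups overlapped. The call was lost without *fog-2(lf)* replicate 1 or 2 (adjusted p = 0.106 and 0.102, edgeR). Its sixth-day levels were 22.8, 42.7 and 22.8 TPM in *fog-2(lf)*, against 10.6, 19.6 and 21 TPM in wild type, with no overlap and no call (1.03, standard error 0.44, adjusted p = 0.144, edgeR). The gene lies inside *trpp-10* of the opposite strand, with no base of shared exon.

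C24B9.3 (V, 2706966 to 2711599, minus strand, 429 amino acids) was at 27.4, 30.9 and 34.1 TPM in first-day *fog-2(lf)*, against 67.8, 46.4 and 97.8 TPM in first-day wild type (log2 difference -1.32, standard error 0.43, adjusted p = 0.0745, edgeR). The groups did not overlap, and the call was lost when any 1 of the first-day libraries other than wild-type replicate 2, or sixth-day *fog-2(lf)* replicate 2, was left out (adjusted p 0.106 to 0.185, edgeR). Its sixth-day levels were 8.45, 5.71 and 2.83 TPM in *fog-2(lf)* and 2.81, 4.73 and 1.54 TPM in wild type (1.15, standard error 0.46, adjusted p = 0.124, edgeR). Its estimated counts were whole numbers, within 0.02, in 1 of 12 libraries only, so part of its reads were shared with another gene and its level is uncertain.

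K11D12.13 (V, 188 amino acids) was at 129, 109 and 129 TPM in first-day *fog-2(lf)*, against 254, 111 and 260.1 TPM in first-day wild type (log2 difference -0.89, standard error 0.28, adjusted p = 0.0694, edgeR). Wild-type replicate 2 again lay at the level of *fog-2(lf)*, and the call was lost when any 1 of the first-day libraries other than that one was left out. It was also lost with limma on log2 TPM, at a difference of -0.67 (adjusted p 0.130 to 0.136, limma). With only the 6 libraries of the comparison it was lost as well (adjusted p = 0.185, edgeR). Sixth-day levels were 32.0, 25 and 24.4 TPM in *fog-2(lf)* and 35.2, 28.6 and 34.6 TPM in wild type, a log2 difference of -0.04 (standard error 0.29).

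Y48E1B.8 (II, 13585705 to 13589038, plus strand, 383 amino acids) was the gene called higher in first-day *fog-2(lf)*. It was at 11.1, 7.22 and 35.5 TPM, against 4.59, 3.28 and 2.59 TPM in first-day wild type (log2 difference 2.27, standard error 0.57, adjusted p = 0.0322, edgeR). The groups did not overlap, and *fog-2(lf)* replicate 3 stood far above the other libraries. Without it the difference was 1.26 (adjusted p = 0.134, edgeR). Of its exon bases, 226 are shared with *clec-145* on the opposite strand, which was at a mean of 3.17 TPM in first-day *fog-2(lf)* and 5.21 TPM in first-day wild type. The estimated counts of Y48E1B.8 were whole numbers, within 0.02, in 12 of 12 libraries. T28D6.3 had a first-day difference of similar size that did not pass (1.90, standard error 0.80, adjusted p = 0.145, edgeR), with 32.0, 11.8 and 39.3 TPM in *fog-2(lf)* and 2.30, 16.3 and 2.51 TPM in wild type. It shares 85 exon bases with *tba-7* on the opposite strand, at a mean of 4.18 TPM in first-day *fog-2(lf)* and 6.21 TPM in first-day wild type. The part of *tba-7* in the level of T28D6.3 was not tested.

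**Figure D3:**
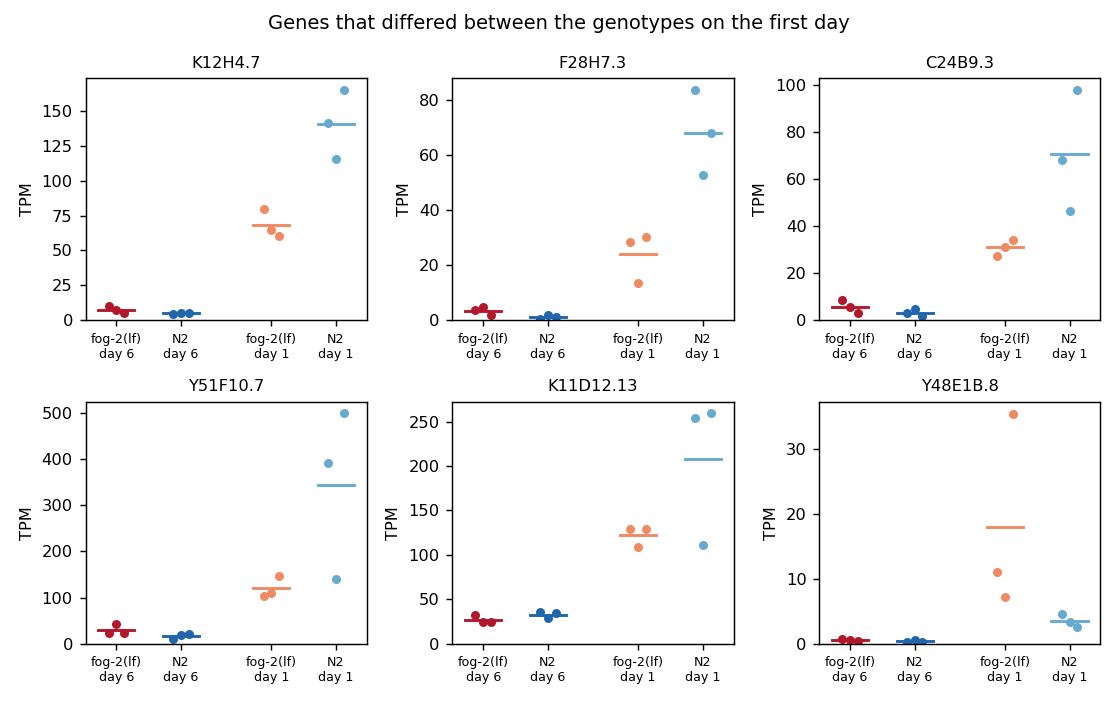
TPM per library, from 0, for the 6 genes called between the genotypes on the first day, with sixth-day groups left and first-day groups right in each panel; points are libraries and bars the means of 3. First-day *fog-2(lf)* libraries lie below all wild-type libraries for K12H4.7, F28H7.3 and C24B9.3, overlap with wild-type replicate 2 for Y51F10.7 and K11D12.13, and lie above all for Y48E1B.8.

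On the sixth day, 5 of the 24 genes were higher and 1 was lower in *fog-2(lf)*, shares of 20.8% and 4.17%, while 9.86% and 10.5% of all genes tested were called in these directions. The median log2 difference was 0.83 (range -1.06 to 2.07), against -0.02 over all genes tested, and 20 of the 24 differences were positive, as were 47.7% of those of all genes. The *fog-2(lf)* libraries were all above the wild-type libraries in TPM for 8 of the 24 genes, a share of 33.3%, against 5.91% of all genes tested. The reverse held for none of the 24 and for 40.3% of all genes. On the log2(TPM + 0.5) scale the median difference was 0.47 for the 24 genes and -0.21 for all genes tested. The named genes within the same limits were not set beside them. This lean is therefore not shown to be particular to the 24 genes.

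The 5 genes called higher were F28H7.3 and K12H4.7, given above, with E04F6.15, C05D12.3 and C35A11.4. E04F6.15 (II, 319 amino acids) was at 3.58, 2.80 and 1.85 TPM in sixth-day *fog-2(lf)*, against 1.23, 1.29 and 0.598 TPM in sixth-day wild type (log2 difference 1.63, standard error 0.48, adjusted p = 0.0488, edgeR). C05D12.3 (II, 14 exons, 1039 amino acids) was at 1.74, 0.821 and 0.765 TPM, against 0.457, 0.525 and 0.730 TPM (1.19, standard error 0.40, adjusted p = 0.0722, edgeR). C35A11.4 (V, 515 amino acids) was at 0.879, 0.805 and 0.373 TPM, against 0.223, 0.222 and 0.159 TPM (1.99, standard error 0.72, adjusted p = 0.0919, edgeR). The groups did not overlap for these 3 genes, and all were at levels of a few TPM or less. Without *fog-2(lf)* replicate 1 all 3 calls were lost, at log2 differences of 1.35 for E04F6.15, 0.66 for C05D12.3 and 1.73 for C35A11.4 (adjusted p = 0.173, 0.294 and 0.245, edgeR). The calls of C05D12.3 and C35A11.4 were also lost without any 1 sixth-day wild-type library and with limma on log2(TPM + 0.5), at 0.545 and 0.73. That of E04F6.15 was lost without *fog-2(lf)* replicate 2 or wild-type replicate 2 or 3 as well (adjusted p 0.109 to 0.145, edgeR). Exons of C05D12.3 share 822 bases with C05D12.4 of the same strand, and its estimated counts were whole numbers, within 0.02, in 12 of 12 libraries. F44A6.5 (X, 250 amino acids) was the gene called lower, at 0.905, 0.460 and 0.446 TPM against 1.84, 1.67 and 0.880 TPM (-1.06, standard error 0.39, adjusted p = 0.0989, edgeR), with overlapping groups.

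The sixth-day differences leaned on *fog-2(lf)* replicate 1. Of the 25 genes, 21 were highest in it among the 3 sixth-day *fog-2(lf)* libraries, as were 22.8% of the 8920 genes at 3 TPM in both first-day groups. Without it no member was called higher (4 had an unadjusted p under 0.05, edgeR), and the median log2 difference was 0.56, against -0.04 over all genes. Without *fog-2(lf)* replicate 2, or wild-type replicate 1, 2 or 3 of that day, the number called higher was 1, 2, 1 and 1, and without *fog-2(lf)* replicate 3 it was 8. It was 9 without first-day wild-type replicate 2, which enters through the shared estimate of spread. The call of F44A6.5 was lost without 9 of the 12 libraries, each in turn. On the first principal component the sixth-day *fog-2(lf)* libraries stood at -33.0, -41.3 and -54.5, and the sixth-day wild-type libraries at -75.9, -73.0 and -75.4, while first-day *fog-2(lf)* libraries were at 42.8 to 53.5. Replicate 1 was thus the sixth-day library nearest to the first-day side. The part of these positions in the differences was not tested.

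**Figure D4:**
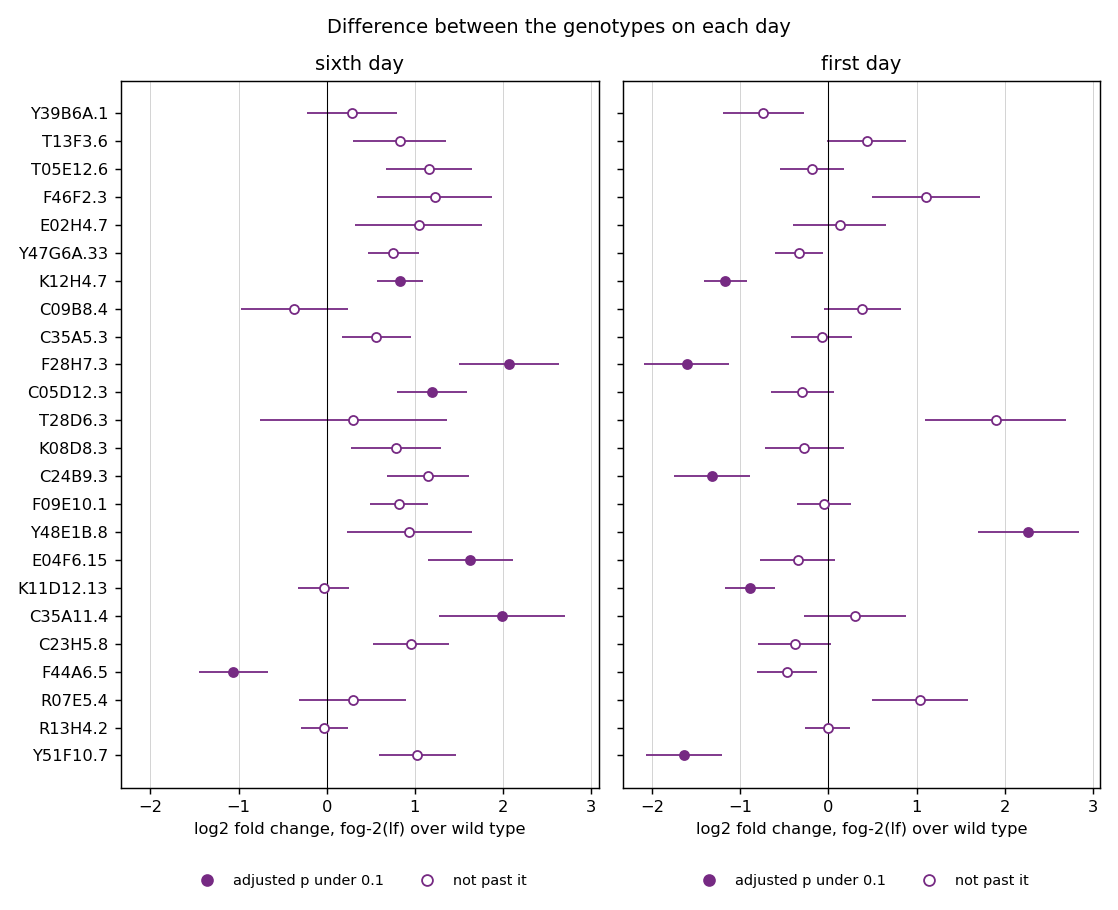
Log2 fold change of *fog-2(lf)* over wild type on the sixth day (left) and the first day (right) for the 24 genes tested, with bars of 1 standard error; filled points passed an adjusted p of 0.1 in edgeR. On the sixth day 20 points lie right of 0, around a median of 0.83, and on the first day 16 lie left of it, around -0.23.

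Marker genes of several tissues moved with the same contrasts, and their part in the results was not tested. In whole worms, fewer cells of a type and less RNA per cell cannot be told apart. The summed TPM of 6 intestinal markers was 1483 to 2087 in sixth-day and 4021 to 5422 in first-day *fog-2(lf)*, and 1177 to 1865 in sixth-day and 6677 to 15050 in first-day wild type. Without *vit-6*, the most abundant intestinal marker, the other 5 summed to 796 to 935 in sixth-day and 1902 to 2516 TPM in first-day *fog-2(lf)*. In wild type they summed to 676 to 957 TPM on the sixth day and 3462 to 7975 TPM on the first day. The summed TPM of 5 epidermal markers was 71.6 to 80.9 in sixth-day and 622 to 1333 in first-day *fog-2(lf)*. In wild type it was 60.9 to 77.6 on the sixth day and 302 to 1271 on the first day. Nearly all of the first-day sum was *col-19*. Without it the other 4 summed to 48.6 to 61.5 in sixth-day and 44.1 to 53.2 TPM in first-day *fog-2(lf)*, and to 54.7 to 68.9 in sixth-day and 35.1 to 43.3 TPM in first-day wild type. Body wall muscle markers, 4 genes, stood at 36.2 to 40.1 and 204 to 357 TPM in the 2 *fog-2(lf)* groups, and at 56.0 to 78.7 and 73.5 to 221 TPM in the 2 wild-type groups, sixth day before first. Neuronal markers, 6 genes, were at 49.7 to 57.6 TPM in sixth-day *fog-2(lf)*, against 75.6 to 81.5 TPM in sixth-day wild type, and those of the somatic gonad, 5 genes, at 81.0 to 87.1 against 139 to 146 TPM. No marker of these lists was at 0 in every library.

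The named genes within the same limits held 29 collagen genes of the *col* family, which encode structural proteins of the cuticle, 6 genes each of the *clec* (C-type lectin) and *pud* families and 3 vitellogenin genes, which encode yolk proteins made in the intestine. In 3 cases, *clec-209*, *pud-2.2* and *nspa-1*, 2 separate genes share a symbol and have equal ratios, and each is counted, although their reads may not be told apart. Of 16 intestinal genes tested, 9 were called lower in *fog-2(lf)* (median log2 change -1.36) and 14 in wild type (-2.17). The largest changes were those of *vit-1*, *vit-3* and *vit-4*. *vit-1* averaged 40.2 TPM in sixth-day and 478 TPM in first-day *fog-2(lf)*, and 13.9 and 1150 TPM in sixth-day and first-day wild type. Its log2 changes were -3.62 (standard error 0.49) and -6.79 (standard error 0.57). By its means *vit-1* was higher in *fog-2(lf)* on the sixth day and lower on the first day. The means of several of the 25 genes had this order, among them F28H7.3, K12H4.7, C24B9.3, Y51F10.7, Y47G6A.33 and C23H5.8. Others did not, such as F46F2.3, which was higher in *fog-2(lf)* on both days. Only F28H7.3 had this order without overlap between the genotypes on both days.

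Of 120 cuticle collagen genes tested, 44 were called lower and 23 higher in *fog-2(lf)* (median -0.80), and 51 lower and 33 higher in wild type (-0.41). *col-93* had log2 changes of -8.89 and -8.57 (standard error 1.12 for both), at 1411 and 669 TPM in first-day *fog-2(lf)* and wild type. Of 10 epidermal genes, 3 were called lower and 3 higher in *fog-2(lf)* (median 0.09), and 1 lower and 5 higher in wild type (0.47). Among them *col-19*, an adult cuticle collagen, was lower in both genotypes (-5.76 and -6.76), while the collagen genes *rol-6* and *dpy-7* were higher (2.93 and 5.37 for *rol-6*, 2.42 and 4.36 for *dpy-7*), both at means of at most 3.48 TPM in each condition. Of 37 genes of molting and cuticle assembly, 7 were called lower and 11 higher in *fog-2(lf)* (median 0.09), and 2 lower and 22 higher in wild type (0.78). Of 15 body wall muscle genes, 14 were called lower in *fog-2(lf)* (-2.21) and 10 in wild type (-1.34). All log2 changes in this paragraph are given for *fog-2(lf)* first and are sixth day over first day (edgeR).

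The other lists gave no uniform direction in both genotypes. Higher calls led in wild type for cuticlins (17 of 27, median 1.45), hedgehog-related genes (20 of 32, 1.41), neuronal genes (7 of 13, 0.59) and genes of the pharyngeal cuticle and glands (5 of 9, 1.88). In *fog-2(lf)* these lists had 6, 7, 0 and 2 genes called higher and 7, 8, 3 and 3 called lower. Of 34 sperm genes, 4 were called lower and 3 higher in *fog-2(lf)* (-0.68), and 15 lower and 4 higher in wild type (-1.83), which turned to 4 lower and 9 higher with limma on log2(TPM + 0.5). The 8 sperm markers summed to 1.62, 137 and 3.99 TPM in the first-day wild-type libraries, so that replicates 1 and 3 were near the 1.52 to 3.63 TPM of sixth-day wild type. Eggshell and oocyte genes (15 tested), early embryo genes (7), pharyngeal muscle genes (5) and somatic gonad genes (9) had 7, 0, 3 and 3 called lower in *fog-2(lf)* and 5, 3, 0 and 1 in wild type. With library totals in place of TMM factors the eggshell and oocyte list turned to 4 called higher and 2 lower in *fog-2(lf)* and 11 higher and 0 lower in wild type, the neuronal list to 4 higher and 2 lower in *fog-2(lf)*, and the somatic gonad list to 4 higher and 0 lower in wild type. The early embryo list, 2 higher and 3 lower in wild type, turned to 4 higher and 3 lower with limma, and the hedgehog-related list in *fog-2(lf)* to 8 higher and 7 lower with library totals.

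The genes next to the 25 changed in both directions. Of the 50 nearest protein-coding neighbours, 38 were tested. In *fog-2(lf)* 12 were called lower and 7 higher on the sixth day, and in wild type 12 lower and 11 higher (edgeR). The limits on TPM were met by 1 neighbour, *srh-237*, 936 bases from T05E12.6 on the opposite strand. It averaged 0.199 and 7.53 TPM in sixth-day and first-day *fog-2(lf)*, and 0.229 and 7.43 TPM in sixth-day and first-day wild type, with log2 changes of -5.44 (standard error 0.69) and -5.50 (standard error 0.68). *dhs-7*, 202 bases from E04F6.15, was also lower in both, at -2.01 (standard error 0.57) in *fog-2(lf)* and -3.86 (standard error 0.64) in wild type. E04F6.8 on its other side was higher, at 1374 and 203 TPM in sixth-day and first-day *fog-2(lf)* and 1648 and 349 TPM in sixth-day and first-day wild type.

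Where a gene had several isoforms, the division of its TPM among them was uncertain. In R13H4.2 isoform d held 17.6 to 36.3% of the TPM in sixth-day *fog-2(lf)*, against 0.00425 to 2.91% in first-day *fog-2(lf)*, with no overlap. In wild type its share ran from 0.0135 to 22.5% on the sixth day and from 0.00292 to 12.6% on the first day, so the groups overlapped. The leading isoform on the first day, e, held 10.9 to 29.1% in sixth-day and 36.2 to 42.0% in first-day *fog-2(lf)*, and 13.2 to 32.9% in sixth-day and 38.1 to 49.0% in first-day wild type, with no overlap in either. In C23H5.8 isoform a held 58.6 to 82.8% in sixth-day and 44.9 to 53.3% in first-day *fog-2(lf)*, and 70.3 to 73.8% in sixth-day and 35.9 to 68.2% in first-day wild type.

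The remaining genes followed the set without a call between the genotypes. C09B8.4 (X, 289 amino acids) was at 0.227 to 0.465 TPM in sixth-day and 9.52 to 11.4 TPM in first-day *fog-2(lf)*, and at 0.327 to 0.856 TPM in sixth-day and 2.76 to 12.3 TPM in first-day wild type. C35A5.3 (V, 460 amino acids) was at 1.02 to 1.41 and 10.1 to 16.3 TPM on the sixth and first day in *fog-2(lf)*, and at 0.676 to 1.28 and 6.3 to 18.2 TPM in wild type. R07E5.4 (III, 186 amino acids) was at 1.33 to 1.75 and 8.28 to 26.1 TPM on the sixth and first day in *fog-2(lf)*, and at 0.589 to 1.93 and 3.82 to 13.8 TPM in wild type. First-day replicate 2 was the lowest library of its group for 16 of the 25 genes in *fog-2(lf)* and for 13 in wild type, as for 22.5% and 30.9% of the 8920 genes at 3 TPM in both first-day groups. These are the 2 libraries with the highest sperm markers, and the part of either in the levels was not tested.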

How the data were processed

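Libraries were made with the NEBNext Ultra RNA kit, which does not mark strand, and the submitters' processing notes name kallisto, sleuth and WBcel235, with versions not given in the sources used here. The estimated counts deposited by the authors are reads assigned by kallisto to each of 32905 isoforms. The TPM deposited by the authors correct these reads for the effective length of each isoform and bring every library to a common total. A second set of files with the same counts and no TPM was not used.

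Isoforms were assigned to genes with the Ensembl 115 annotation, and 307 matched none and kept their own sequence names. TPM and counts were added up per gene. Counts were rounded, filtered with filterByExpr over the 4 conditions, scaled with TMM, which takes most genes to be unchanged, and fitted with edgeR 4.0.16 (quasi-likelihood test, R 4.3.3) to all 12 libraries. A difference was called where the p, after Benjamini-Hochberg adjustment over 14561 genes, was under 0.1, the threshold of the study. Leaving out TMM would move the median of all genes by over 0.1 on the log2 scale, which the closing limits give. Replicates are biological replicates per the paper, each from a pool of worms. The fits were tested on simulated data. Over the 4 contrasts they recovered 40 to 55% of 2-fold changes and 71 to 80% of 4-fold changes. There were 8 to 14 false calls in a contrast. A missing call therefore does not show equal levels.

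The genes and the lists were chosen with earlier results of these data known. The rule for named genes took the 10 with the highest first-day means, the 10 with the largest lower ratios, those called between the genotypes, the 3 on either side of each limit, and up to 3 called genes of each of 14 lists, by the size of the change with age in wild type; members outside it are named so that all 25 are accounted for. Neighbours and overlapping genes were named after their values were seen. Alternatives were DESeq2 1.42.0, RLE factors or library totals in place of TMM, leaving out the filter on low counts, limma 3.58.1 on log2(TPM + 0.5), + 0.1 or + 1, an adjusted p under 0.05, fits to the 6 libraries of a comparison, a block for the replicate number, leaving out libraries in turn, and other limits for the rule. No protein or genome sequence was used here.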

Additional observations from a re-analysis of the deposited data

Results flagged for a closer look

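F28H7.3 was higher in every *fog-2(lf)* library than in every wild-type library on the sixth day and lower in every one on the first day. Its genotype difference on the sixth day minus that on the first day was 3.68 on the log2 scale of the edgeR fit. This difference between the days was not tested, since it is also the difference between the changes with age that chose the gene.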

How the results depend on the processing

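The rule took 25 genes. It took 40 with an offset of 0.1 TPM, 16 with first-day means of at least 10 TPM, and 60, 14 and 8 with ratios of at least 3, 5 and 8. With 1 library left out it took 21 to 34.

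Of the genes higher in first-day *fog-2(lf)*, 1 in the fit given, there were 2 with DESeq2 and with limma on log2(TPM + 0.5) or log2(TPM + 1), and 0 with only the 6 libraries of the comparison (1 at an unadjusted p under 0.05, edgeR). Of the 5 lower, 2 passed an adjusted p under 0.05, 2 passed limma on log2(TPM + 0.1), and 3 passed with only the 6 libraries. With 1 library left out these numbers were 0 to 2 and 1 to 5. On the sixth day, of 5 higher in *fog-2(lf)*, 2 passed an adjusted p under 0.05, and there were 11 with DESeq2, 3 with library totals, 2, 2 and 1 with limma on log2(TPM + 0.5), + 0.1 and + 1, and 8 with only the 6 libraries. The 1 lower was 0 at an adjusted p under 0.05, with RLE factors, with no low-count filter and with only the 6 libraries (1 at an unadjusted p under 0.05 in each, edgeR; 1 called by DESeq2). With 1 library left out these numbers were 0 to 9 and 0 to 1.

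The replicate numbers did not pair the samples (correlation of deviations -0.14 to 0.16 over 18 same-numbered pairs, 4 of them over 0.1). With the replicate number as a block, 1 gene was higher and 4 were lower in *fog-2(lf)* on the first day, and 4 were higher and 1 lower on the sixth, where C05D12.3 was not called (adjusted p = 0.106, edgeR).

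With library totals in place of TMM, the median of all genes moved to 0.14 for genotype on the first day, -0.17 on the sixth, 0.10 for age in *fog-2(lf)* and 0.42 in wild type, and the medians of the 24 genes to -0.09, 0.68, -3.13 and -3.91. No call of a member between the genotypes changed direction under any alternative: 184 values kept their call and 80 lost it. No run of neighbouring members was found at 5, 20 or 50 kb. The alternatives on related proteins and promoter motifs were not run. Of C53B7.6, with at most 5.83 estimated counts in a library, no genotype difference was detectable at this depth.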
